A study of Mus musculus with 7 samples.

Results

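The cells described here are macrophages of mouse nerve sheath tumors in which Ms4a7 or Fcgr4 transcripts were found and no transcript of Mrc1 was. Of 33136 retained cells, 382 met the rule (1.15%), and they were 3.37% of the 11342 retained cells with at least 2 unique molecular identifiers (UMIs, each a counted molecule) of Csf1r and Adgre1 together. The rule further asked for at least 2 UMIs of Fcgr4 and Ms4a7 together, no Mrc1 UMI, at least 10 UMIs of C1qa, C1qb and C1qc together per 10000 UMIs of the cell (CP10K), no UMI of Ly6c2, Chil3, Slfn4 or Atp6v0d2, fewer than 3 of Cxcl9, none of the cycling genes Mki67 and Top2a, none of Cd3e, Cd3d and Cd3g, and at most 1 of the tumor cell genes Tafa1, Unc5c and Col11a1. A retained cell had at least 500 genes and at most 10% of UMIs from mitochondrial genes. The cells were thus chosen by measured values, and the levels of those genes are a description and no result.

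Single-cell RNA profiles came from 7 tumors that grew under the skin of female wild-type C57/B6 mice, which were 5 to 6 weeks old and were given JW23.3 cells on day 0. The JW23.3 line was grown from a mouse malignant peripheral nerve sheath tumor, abbreviated MPNST, and lacks Nf1. On day 7 the mice were randomized, and 4 tumors received 5 daily fractions of 2 Gy with lead shielding around the tumor, while 3 control tumors received none. All 7 tumors were harvested on day 21, dissociated with papain, and run as 1 library each on a 3' droplet assay, so the tumor was the replicate. All tumors descend from the same line, and the macrophages are host cells of wild-type mice.

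Macrophages of a tumor are replenished from blood monocytes, which carry Ccr2 and Ly6c2 and lose both as they mature into cells with complement C1q. Mrc1 encodes the mannose receptor, an endocytic receptor that is high in many tissue-resident and perivascular macrophages together with Folr2, F13a1, Gas6 and Stab1. Fcgr4 encodes an activating receptor for IgG, Ms4a7 a membrane protein of mature macrophages, and C3ar1 the receptor for the complement fragment C3a.

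Of the 3 genes that give these cells their label, Ms4a7 carried the rule. An Ms4a7 UMI was found in 98.2% of the 382 cells, C3ar1 in 59.9% and Fcgr4 in 36.4%. T cells, which should lack all 3 genes, were taken as cells with at least 2 Cd3e, Cd3d and Cd3g UMIs together and no Csf1r or Adgre1 UMI. That choice leaves out T cells with some macrophage RNA. The share of the 1093 T cells with a UMI was 4.94% for Ms4a7, 1.56% for C3ar1 and 0.549% for Fcgr4. Both Fcgr4 and Ms4a7 were found in 132 cells, 243 cells had at least 2 Ms4a7 UMIs and no Fcgr4, and only 7 cells met the rule through Fcgr4 alone. By tumor, Fcgr4 was found in 29.4% to 75% of the cells. The cells are therefore called Mrc1-free Ms4a7 macrophages below. The name means that no Mrc1 UMI was counted in the cell, and not that Mrc1 was absent from it. Of the 4445 cells that met every clause but had at least 1 Mrc1 UMI, which were deeper, 39.2% had an Fcgr4 UMI. Relative to all UMIs, Fcgr4 was at 0.877 to 3.55 CP10K by tumor in the Mrc1-free and at 0.759 to 2.28 CP10K in the Mrc1-positive cells, and was higher without Mrc1 in 6 of 7 tumors, a description with no test since the rule used the gene.

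The markers of macrophages were high. Csf1r was found in 89.8% and the complement gene C1qa in 99.2% of the cells, both of which the rule used, and the summed level of 15 core macrophage genes, 10 of them outside the rule, was 271 to 507 CP10K by tumor, against 3.30 to 6.14 CP10K in T cells. Csf1r and Adgre1 are in that list and were fixed at 0 in the T cells, so the contrast was partly built in. Of 12 T and NK cell markers, 8 were at 0 in all 382 cells. Trac was among them, and so was Cd3e, which the rule fixed at 0. The summed level of the list was 0 to 0.195 CP10K. Of 10 markers of MPNST cells, the summed level was 0.167 to 1.08 CP10K, against 56.2 to 68.6 CP10K in MPNST cells. The rule capped Tafa1, Unc5c and Col11a1 of this list. The MPNST cells were chosen by at least 5 UMIs of the same genes and no Csf1r or Adgre1 UMI, so the contrast was partly built in. Xist, which marks cells of the female host, was found in 79.3% of the cells, in 92.6% of the Mrc1-positive ones and in 5.48% of 13706 MPNST cells. No cell of the 382 was called a doublet by Scrublet, which called 2.08% of retained cells. Retained barcodes shared between libraries numbered 127, and 6 of these were barcodes of Mrc1-free cells, of which 0 belonged to an Mrc1-free cell in both libraries.

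The libraries held 39537 deposited cells and 646559899 UMIs, with a median of 7374.5 to 21017 UMIs per retained cell by tumor. Of 63 splits in 2 sets, the tightest on cell number, depth, genes per cell and mitochondrial share together crossed the groups. It put irradiated 1, control 2 and control 3 in 1 set and irradiated 2 to 4 and control 1 in the other. A share of 0.4175 of the variance stayed within the sets. The sets did not overlap in deposited cells or median UMIs. They did in median genes (3597 in irradiated 1, 3505 in irradiated 4) and median mitochondrial share (3.44% in control 3, 3.88% in control 1). The labels name no batch. The Mrc1-free cells were shallower than the cells with Mrc1 in every tumor, with a median of 3486 to 8225.5 UMIs against 4648 to 12012.

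Irradiated tumors 1 to 4 held 54, 22, 20 and 28 Mrc1-free cells, and control tumors 1 to 3 held 27, 136 and 95. As a share of retained cells this was 0.856%, 0.952%, 0.657% and 0.954% in the irradiated and 0.534%, 1.97% and 1.44% in the control tumors. Control 2 and control 3 lay above every irradiated tumor and control 1 below all of them. The irradiated tumors had a mean of 0.855% ± 0.139 (SD, n = 4). The control tumors had one of 1.32% ± 0.727 (SD, n = 3). The difference of -0.461 percentage points did not exceed the spread between tumors (two-sided exact permutation test, p = 0.286, adjusted over 2 shares p = 0.286). The smallest single tail that 35 splits allow is 0.0286. The two-sided p is 2 times the smaller tail, so a p as low as 0.0286 was out of reach of this test. Within the set of irradiated 1, control 2 and control 3 the difference was -0.850 points, and within the other set it was 0.321 points. As a share of macrophages, the values were 1.87% to 2.98% in irradiated and 1.84% to 5.96% in control tumors (difference -1.62 points, p = 0.286 by the same exact test). Cells that failed only the clause on Ly6c2, Chil3 and Slfn4 numbered 8, 61, 31 and 144 in irradiated tumors 1 to 4. In control tumors 1 to 3 they numbered 51, 23 and 33. The part of this clause in the shares was not tested.

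Depth moved with these shares. Among the 4827 cells that met every clause but the one on Mrc1, 20.7% of those below 2500 UMIs had no Mrc1 UMI, 10.9% of those from 2500 to 5000, 5.23% of those from 5000 to 10000 and 3.52% of deeper ones. The fall did not hold in every tumor: in control 2 the share was highest in the deepest cells (14 of 57, 24.6%), and in irradiated 4 it was 11.8% there (13 of 110) and 9.62% from 5000 to 10000 UMIs. These tumors gave 14 and 13 of the 34 deepest Mrc1-free cells. When every cell was thinned to 3000 UMIs, with 5006 shallower cells left out, 374 of 3897 cells with Mrc1 (9.60%) lost their last Mrc1 UMI. Of the 609 cells that met the rule after thinning, 180 had met it before and 247 had been Mrc1-positive. On thinned cells the share of retained cells was 1.74%, 2.90%, 2.37% and 3.14% in irradiated and 1.79%, 2.12% and 2.08% in control tumors, so the sign of the difference turned to 0.538 points (exact permutation p = 0.286). A cell without an Mrc1 UMI is thus a cell in which Mrc1 was not detected at its depth.

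**Figure D1:**
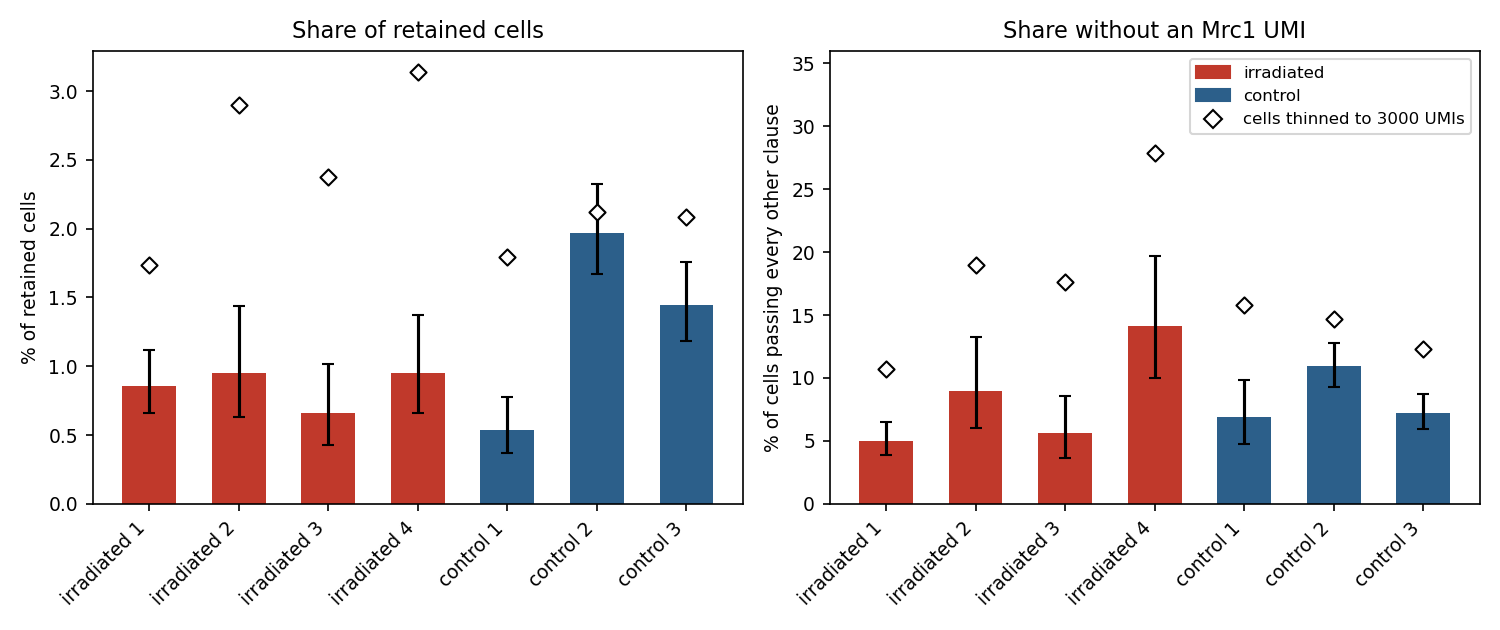
Share of Mrc1-free Ms4a7 macrophages by tumor, as a percentage of retained cells (left) and of the cells that met every clause but the one on Mrc1 (right). Bars are observed shares with 95% Wilson intervals, which cover counting error only, and diamonds are shares after every cell was thinned to 3000 UMIs. Control 2 and control 3 have the tallest bars on the left, while irradiated 2 to 4 have the highest diamonds in both panels.

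To describe what sets the Mrc1-free cells apart, their summed counts were compared with those of the Mrc1-positive cells of the same tumor (edgeR's quasi-likelihood test with tumor as a term, Benjamini-Hochberg adjustment). Of 8274 genes tested, 497 passed an adjusted p of 0.05 (6.01%), of which 209 were higher (2.53%) and 288 lower (3.48%) without Mrc1. In 111 genes (1.34%) the values of the 7 Mrc1-free sums did not overlap those of the 7 Mrc1-positive ones. Of all genes, 2.59% were higher in all 7 tumors and 4.45% lower in all 7. Genes of the rule were left out. Cells were split by Mrc1 itself, so the comparison measures which genes vary with Mrc1 among otherwise like-gated cells. Levels below are CPM, the authors' UMI counts summed per tumor and scaled to 1000000 normalized UMIs, and fold changes are on the log2 scale as fitted.

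The genes that were lower included markers of Mrc1-high resident macrophages. Of 9 tested members of that list, 6 were lower and none higher without Mrc1, with a median log2 fold change of -1.64 beside 0.00 over all genes. F13a1, the A subunit of coagulation factor XIII and a marker of resident macrophages, ran from 0 to 174 CPM with a median of 89.7 in Mrc1-free cells. In Mrc1-positive cells it ran from 353 to 621 CPM with a median of 494, so the 2 ranges did not touch, and the log2 fold change was -2.43 ± 0.40 (SE, adjusted p = 0.018). Gas6, a bridging ligand that links dying cells to phagocyte receptors, was at 29.2 to 113 CPM (median 81.6) without and at 190 to 347 CPM (median 280) with Mrc1, again without overlap (-2.02 ± 0.17, adjusted p = 2.3e-11). Stab1, a scavenger receptor, was at 65.1 to 255 CPM against 369 to 425 CPM (-1.35 ± 0.14). The folate receptor Folr2 (-1.37 ± 0.20), the carbonyl reductase Cbr2 (-1.93 ± 0.44) and the platelet chemokine Pf4 (-1.14 ± 0.23) were lower in all 7 tumors as well. Some of these calls were lost when 1 tumor was left out: F13a1 without irradiated 3 or control 2 (adjusted p = 0.051 and 0.058), Pf4 without irradiated 1, irradiated 3 or control 3 (0.066 to 0.090), and Cbr2 without irradiated 2, 3 or 4 or control 2 or 3 (0.051 to 0.157).

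Of 15 tested genes of the efferocytosis and scavenger receptor list, 5 were lower, none was higher and 10 did not pass (median -0.21). Besides Gas6 and Stab1 these were Mertk, a receptor tyrosine kinase that binds Gas6 (62.6 to 332 CPM against 331 to 411 CPM, -1.21 ± 0.19), Lrp1, a large endocytic receptor (-0.95 ± 0.12), and Msr1, a class A scavenger receptor (-0.69 ± 0.13). Chemokine ligands showed 1 higher and 4 lower genes of 15, the monocyte attractants Ccl12 (-1.13 ± 0.17), Ccl7 (-0.99 ± 0.18) and Ccl2 (-0.74 ± 0.13) being lower in all 7 tumors beside Pf4. The higher one was Cxcl14 (1.02 ± 0.29), whose call was lost without irradiated 1, 2 or 3 or control 2 (adjusted p = 0.082 to 0.378). Ccl12, Ccl7 and Ccl2 passed neither among cells of at least 5000 UMIs (adjusted p = 0.052, 0.25 and 0.24) nor in thinned cells. Ccr1, a chemokine receptor, fell from 203 ± 28 CPM with to 94 ± 33 CPM (SD, n = 7) without Mrc1.

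Of 25 tested genes of the lysosomal list, 4 were lower and none higher (median -0.22): the cholesterol exporter Npc1 (-0.67 ± 0.16), the protease Ctsb (-0.54 ± 0.09) and the membrane proteins Cd63 (-0.42 ± 0.12) and Lamp1 (-0.38 ± 0.10), and 22 of the 25 had a negative fold change. The Cd63 call was lost without irradiated 2, irradiated 4 or control 3 (adjusted p = 0.066 to 0.119), and that of Lamp1 without irradiated 4 (0.079). Lyz2, the macrophage lysozyme, was at 4962 ± 1698 CPM against 7948 ± 906 CPM (SD, n = 7), a log2 fold change of -0.75 ± 0.16 that did not pass without irradiated 2, irradiated 3 or control 2 (adjusted p = 0.104 to 0.146). The iron and heme list had 3 lower members of 13. These were transferrin (Trf, -1.06 ± 0.16), biliverdin reductase B (Blvrb, -0.72 ± 0.14) and Hpgds (-0.68 ± 0.14). Hpgds stood on the list although it encodes a prostaglandin D synthase. The 1 higher member was the ferritin heavy chain Fth1 (0.22 ± 0.07). The Fth1 call was lost among cells of at least 5000 UMIs (adjusted p = 0.97) and when any tumor but control 2 was left out (0.055 to 0.197).

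Of 4 tested classical monocyte markers 1 was higher, Ccr2, while S100a4, Fn1 and Plac8 did not pass, and of 5 tested non-classical markers Spn and Gngt2 were higher and Cx3cr1 was lower. Ccr2, the receptor that draws monocytes into tissue, was at 179 to 431 CPM (median 331) without and at 129 to 236 CPM (median 172) with Mrc1, and was higher in 6 of 7 tumors (0.74 ± 0.15, adjusted p = 0.0016). S100a6, a calcium-binding protein, was at 461 to 1785 CPM (median 1053) against 252 to 817 CPM (median 490) and higher in 7 of 7 tumors (0.94 ± 0.12, adjusted p = 2e-05). The galectin Lgals3 (0.87 ± 0.11), the matrix protein Tgfbi (0.74 ± 0.10), the adhesion protein Spn (2.44 ± 0.35) and the integrin Itgax (1.43 ± 0.31) were each higher in all 7 tumors. Il1b, an inflammatory cytokine, was higher in 6 of 7 (0.92 ± 0.21, adjusted p = 0.044), and its call was lost when any tumor but irradiated 4 or control 2 was left out (0.071 to 0.144). Of these, Ccr2 and Itgax passed in thinned cells but not among cells of at least 5000 UMIs (adjusted p = 0.13 and 0.17), and Il1b likewise (0.48). S100a6 reads were also at 9165 CPM in MPNST cells and 3518 CPM in T cells. The MPNST cell markers of the Mrc1-free cells, some of them capped by the rule, stayed at or under 1.08 CP10K. The part of free RNA in the S100a6 level was not tested. In the opposite direction, Cx3cr1 and P2ry12, receptors of mature macrophages and microglia, were lower (-0.46 ± 0.11 and -0.92 ± 0.19).

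Some antigen presentation genes were higher. Of 8 tested genes of MHC class II presentation, 4 were higher and none lower, with a median of 0.58 beside 0.00 over all genes: H2-Aa, the class II alpha chain (0.83 ± 0.12), the invariant chain Cd74 (0.65 ± 0.13), the peptide exchange factor H2-DMb1 (0.51 ± 0.15) and the thiol reductase Ifi30 (0.50 ± 0.11). H2-Aa ran from 863 to 4469 CPM (median 1538) without and from 313 to 2110 CPM (median 1007) with Mrc1, and the ranges overlapped widely between tumors although it was higher in 7 of 7. H2-Eb1, the class II beta chain, was at 1766 ± 1258 against 947 ± 578 CPM (SD, n = 7) and did not pass (adjusted p = 0.072). H2-Aa and Cd74 passed neither in cells of at least 5000 UMIs (adjusted p = 0.49 and 0.63) nor in thinned cells (0.20 and 0.14). Of 16 tested class I genes 3 were higher, H2-Q7 (0.96 ± 0.18), H2-T23 (0.57 ± 0.15) and the immunoproteasome subunit Psmb8 (0.42 ± 0.12), and none was lower. The calls of H2-DMb1 (without irradiated 1, irradiated 4, control 1 or control 3, adjusted p = 0.094 to 0.217), H2-T23 (without irradiated 4, control 1 or control 3, 0.050 to 0.085) and Psmb8 (without irradiated 3, irradiated 4 or control 3, 0.056 to 0.119) were lost when 1 tumor was left out. H2-Q7 has near-identical relatives in the mouse genome, and how reads between them were counted is not known.

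Of 32 tested genes of the type I interferon list, 7 were higher, none was lower and 25 did not pass, while 29 had a positive fold change, and the median was 0.50. Irf7, a transcription factor that interferon induces, was at 98.8 to 484 CPM (median 261) without and at 58.3 to 159 CPM (median 125) with Mrc1, higher in 7 of 7 tumors (1.12 ± 0.13, adjusted p = 9e-08). The membrane protein Ifitm3, which blocks viral entry, was at 406 to 1451 CPM against 351 to 824 CPM (0.72 ± 0.10), and Ifi27l2a at 707 to 1615 CPM against 515 to 885 CPM (0.72 ± 0.10). Isg20, an exonuclease (1.39 ± 0.36), Xaf1 (0.87 ± 0.20), Rtp4 (0.79 ± 0.18) and Oasl1 (0.58 ± 0.17) completed the 7. The call of Isg20 was lost without irradiated 2 (adjusted p = 0.052), and that of Oasl1 without irradiated 1, irradiated 4 or control 1 (0.051 to 0.127). Ly6a, a surface protein that interferon raises in many cells, was at 162 to 1489 CPM (median 421) against 111 to 572 CPM (median 165). Cd274, which encodes the checkpoint ligand PD-L1, was higher in 7 of 7 tumors (0.77 ± 0.16, adjusted p = 0.0013). Irf7, Ifitm3, Ifi27l2a and Cd274 also passed in cells of at least 5000 UMIs and in thinned cells.

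The upstream sequences of 3 of these higher genes are shown because each holds a Y box, and that of Fcgr4, a gene of the rule that was left out of the comparison, because it gives the cells their label. Each is the stretch of 250 bases before the annotated start in RefSeq (mouse build GRCm38.p6), written 5′ to 3′ on the gene's strand, with capitals at matches of the Y box CTGATTGG (known from class II and class I promoters) or of the interferon motif (GAAA, any 2 bases, GAAA), searched on both strands. H2-Aa lies at chr17:34287824-34288073 on the minus strand, H2-Q7 at chr17:35438905-35439154 on the plus strand, H2-T23 at chr17:36032702-36032951 on the minus strand and Fcgr4 at chr1:171018676-171018925 on the plus strand.
H2-Aa: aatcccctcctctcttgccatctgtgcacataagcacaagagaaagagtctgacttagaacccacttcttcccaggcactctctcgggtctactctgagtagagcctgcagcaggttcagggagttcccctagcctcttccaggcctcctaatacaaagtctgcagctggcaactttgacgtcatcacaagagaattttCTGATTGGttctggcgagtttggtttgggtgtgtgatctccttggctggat
H2-Q7: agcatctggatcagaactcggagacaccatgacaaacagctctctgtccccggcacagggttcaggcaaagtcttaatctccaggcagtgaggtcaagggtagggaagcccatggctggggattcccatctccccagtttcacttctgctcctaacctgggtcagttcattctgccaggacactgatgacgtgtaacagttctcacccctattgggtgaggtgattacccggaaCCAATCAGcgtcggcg
H2-T23: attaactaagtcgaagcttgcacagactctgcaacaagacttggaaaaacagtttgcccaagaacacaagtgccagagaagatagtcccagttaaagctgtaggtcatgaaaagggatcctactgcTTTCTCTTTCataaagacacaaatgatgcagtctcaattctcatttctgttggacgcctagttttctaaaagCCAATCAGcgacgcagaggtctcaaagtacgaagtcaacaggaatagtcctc
Fcgr4: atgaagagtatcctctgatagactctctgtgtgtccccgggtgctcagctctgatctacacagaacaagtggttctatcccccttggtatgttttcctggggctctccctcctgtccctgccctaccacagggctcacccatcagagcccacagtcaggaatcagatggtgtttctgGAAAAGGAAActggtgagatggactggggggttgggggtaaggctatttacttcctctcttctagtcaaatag
The Y box lay 51, 16 and 52 bases before the starts of H2-Aa, H2-Q7 and H2-T23. The interferon motif lay 124 bases before that of H2-T23 and 73 before that of Fcgr4. Over windows that also took in 50 bases after the start, the Y box was in 4.10% and the interferon motif in 3.44% of 32851 promoters. The Y box was in 4 of 10 class II, 7 of 14 class I and 0 of 26 type I interferon list genes with a promoter in the table, and the interferon motif in 1, 3 and 16 of them. A match is a run of letters and not a measured binding site.

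The list of Fc receptors and their signaling genes was split. Fgr, a kinase downstream of integrins and Fc receptors, was higher (0.94 ± 0.18), and Fcgr3 (-0.55 ± 0.12), the inhibitory receptor Fcgr2b (-0.54 ± 0.11) and the recycling receptor Fcgrt (-1.18 ± 0.17) were lower, out of 11 tested genes outside the rule. Complement genes had 2 higher of 11, Itgax and the alternative pathway factor Cfb (0.62 ± 0.17), and 4 lower, among them C4b (-1.22 ± 0.26), C5ar1 (-0.48 ± 0.12) and Itgam (-0.36 ± 0.11). Of these the calls were lost without 1 tumor for Cfb (irradiated 2, irradiated 4 or control 1, adjusted p = 0.050 to 0.133), C5ar1 (irradiated 4, 0.053) and Itgam (every tumor but irradiated 1 or control 2, 0.071 to 0.142). C3ar1 was at 293 ± 56 CPM without and 349 ± 67 CPM with Mrc1 (SD, n = 7) and did not pass (-0.24 ± 0.11, adjusted p = 0.26). Among 35 tested macrophage transcription factors, Pparg (1.47 ± 0.27), Bhlhe40 (1.01 ± 0.28) and Runx2 (0.93 ± 0.19) were higher, and 5 were lower, led by Maf, a regulator of resident macrophage identity (309 ± 88 against 592 ± 126 CPM, SD, n = 7, with no overlap). The others that were lower were Bhlhe41, Nr4a2, Ahr and Klf2, and the Bhlhe40 call was lost without irradiated 4 or control 2 (adjusted p = 0.128 and 0.282). The lipid-associated list of Trem2 macrophages had 3 higher (Lpl, Lgals3 and Cd9) and 2 lower genes (Ctsb and Cd63) of 16. The Lpl call was lost without control 2 (0.359), and that of Cd9 when any tumor but irradiated 2 or 4 was left out (0.053 to 0.152). Trem2 itself was at 592 ± 158 against 710 ± 42 CPM (adjusted p = 0.081). Other genes with the largest calls were AA467197 (1.86 ± 0.22), Ass1, the argininosuccinate synthase (1.62 ± 0.26), St18, Ms4a4c, Sh2d1b1, AW112010, Dynlt2b, Stap1 and Ighm, which were higher, and Cd38 (-1.78 ± 0.25), Ctla2a, Vcam1, Gm56862, Itsn1 (-1.56 ± 0.15), Fat3, Etv1, Nxpe5 and Gpr34, which were lower, each in all 7 tumors. The St18 call was lost without irradiated 1, 2 or 4 (adjusted p = 0.118 to 0.139). None of the 88 named genes that passed turned direction under any alternative in which it had a value.

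**Figure D2:**
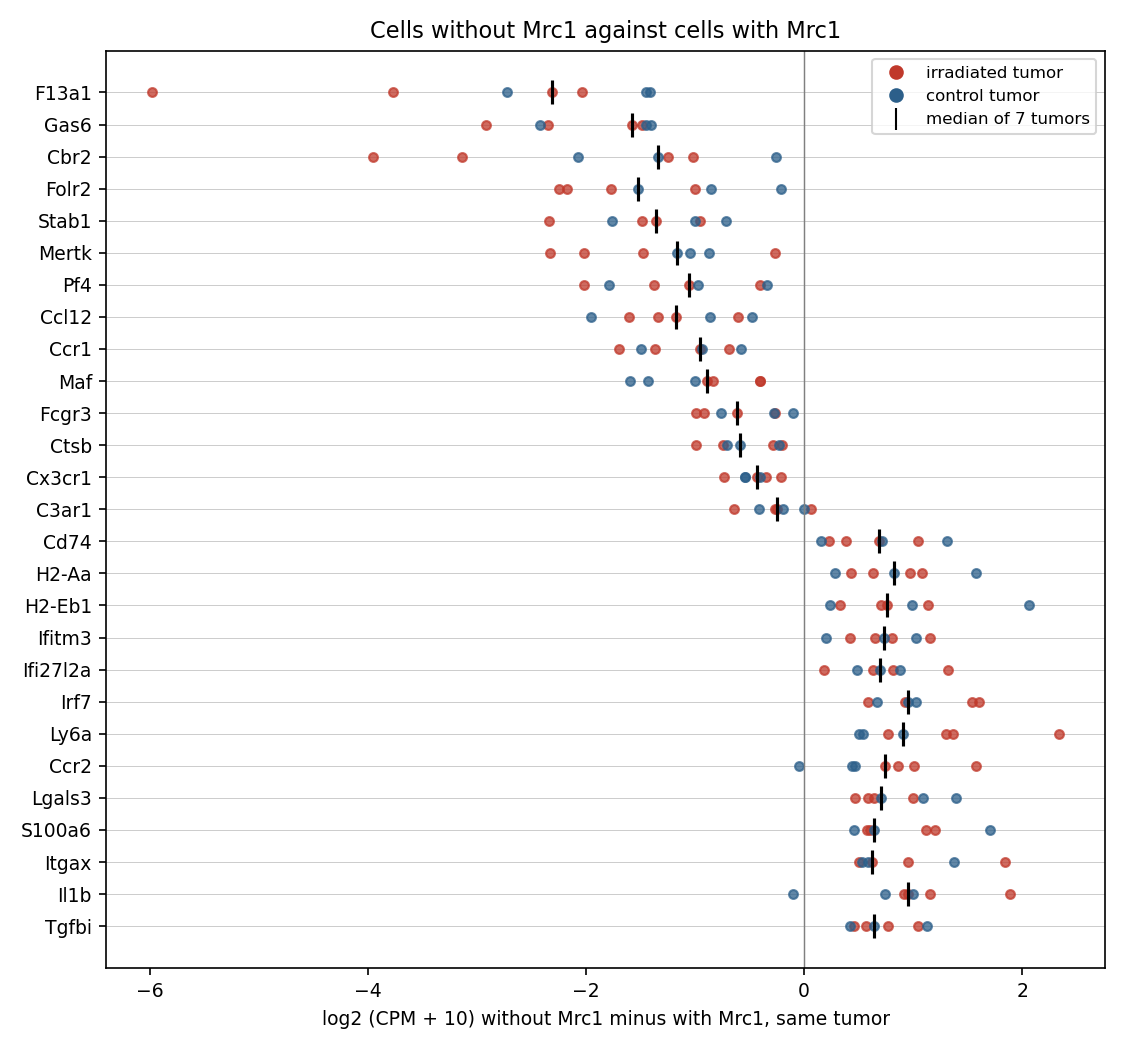
Difference of log2(CPM + 10) between Mrc1-free and Mrc1-positive cells of the same tumor for 27 genes, with 1 point per tumor (red, irradiated; blue, control) and the median of 7 tumors as a black line. F13a1, Gas6 and Stab1 lie left of 0 in all 7 tumors, and S100a6, Irf7 and H2-Aa right of 0 in all 7.

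Levels were also read by the number of Mrc1 UMIs in the cell. In 438 cells with exactly 1 Mrc1 UMI, pooled F13a1 was 184 CPM, between 97.4 CPM in the 382 cells with none and 224 CPM in 419 cells with 2, and it reached 751 CPM in 1397 cells with 10 or more. Gas6 ran 64.8, 114, 184, 249 and 364 CPM over cells with 0, 1, 2, 3 to 9 and 10 or more Mrc1 UMIs. S100a6 ran the other way, at 1155, 732, 593, 469 and 435 CPM, and Irf7 at 187, 155, 129, 96.7 and 79.7 CPM. Ly6a and Lgals3 also fell at each step. Other genes called higher without Mrc1 did not. At 0, 1 and 2 Mrc1 UMIs Ccr2 was 287, 273 and 281 CPM and Il1b 1069, 1043 and 1272 CPM. Itgax was 26.8, 28.5 and 18.4 CPM and Cd74 5004, 5916 and 6733 CPM. Each was lower at 10 or more. Of the Mrc1-positive cells, 3588 had 3 or more Mrc1 UMIs. These levels are pooled over tumors. Between 0 and 1 Mrc1 UMI, F13a1 was lower at 0 in 7 of 7 tumors and Gas6 in 5, while S100a6 was higher at 0 in 4 and Irf7 in 5. Cells with more Mrc1 UMIs were deeper, with a median of 3968 UMIs at 0 and 8530 at 10 or more. In thinned cells S100a6 ran 823, 530, 449, 379 and 403 CPM, so it did not fall at the last step, and Irf7 ran 207, 139, 113, 87.1 and 53.7 CPM. H2-Aa did not peak in the Mrc1-free cells: it was 1971 CPM with no, 2191 CPM with 1, 2509 CPM with 2, 1578 CPM with 3 to 9 and 601 CPM with 10 or more Mrc1 UMIs, and was higher at 0 than at 10 or more in 7 of 7 tumors but than at 1 in only 3 of 7. In thinned cells H2-Aa ran 1521, 1964, 1616, 1133 and 524 CPM, with its peak at 1, and was higher at 0 than at 1 in 1 of 7 tumors. These values sit inside and just outside the threshold of the rule and carry no test. At the other threshold, 67 cells with 1 UMI of Fcgr4 and Ms4a7 together had C3ar1 at 1.66 CP10K, 65 cells with 2 had 1.93 CP10K and 317 with 3 or more had 2.75 CP10K.

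**Figure D3:**
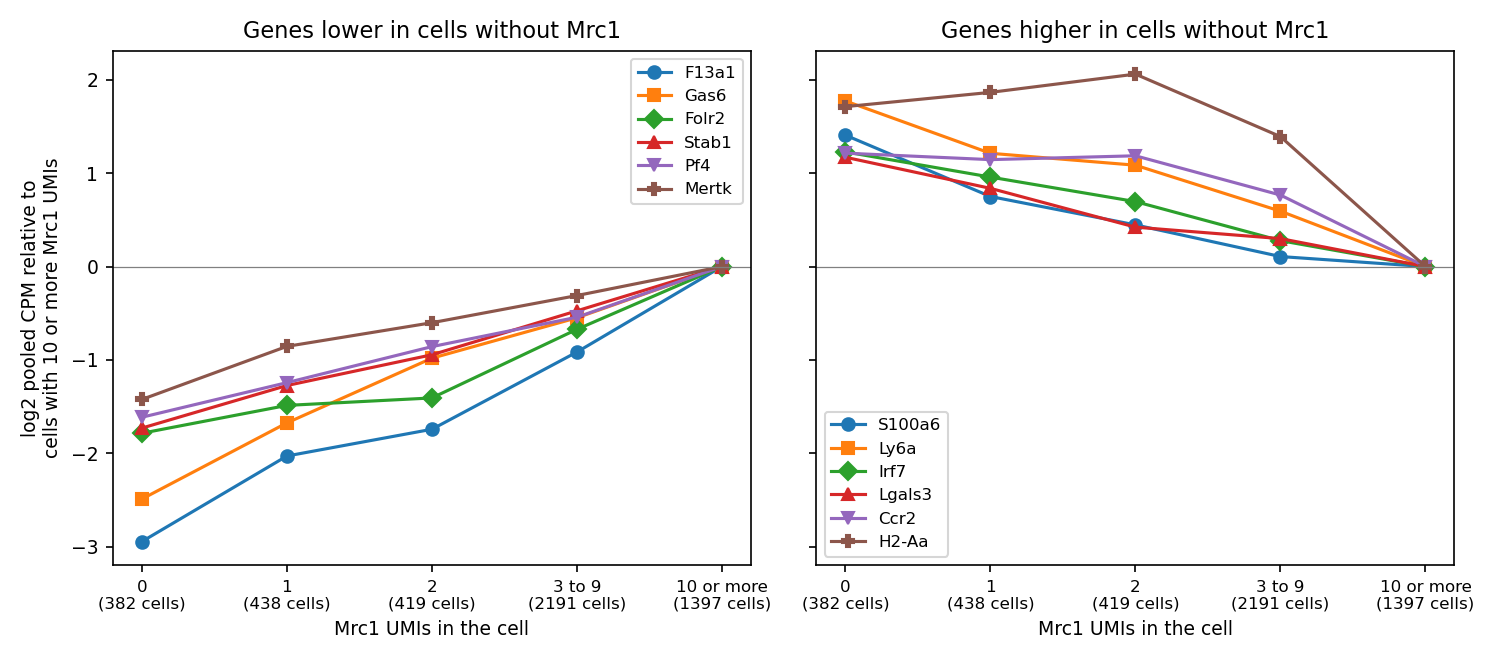
Pooled level of 12 genes in cells that met every other clause, by the number of Mrc1 UMIs in the cell, as log2 CPM relative to cells with 10 or more. F13a1 and Gas6 climb step by step to the right (left panel), S100a6 and Irf7 fall step by step (right panel), and H2-Aa is highest at 2 Mrc1 UMIs in these cells, which were not thinned.

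The cells were also compared with monocytes of the same tumor, which had at least 2 Ly6c2 UMIs and at least 1 of Csf1r and Adgre1, and no Chil3, Slfn4 or Mrc1. Only 2 to 15 such monocytes were found per tumor, 55 in all, so their levels rest on few counts. Of 1932 genes tested, 130 passed (6.73%), 56 higher (2.9%) and 74 lower (3.83%) in the Mrc1-free macrophages (edgeR, tumor as a term). The values of 40 genes (2.07%) did not overlap, 6.88% were higher in all 7 tumors and 3.88% lower in all 7. Without irradiated 1, 80 genes passed. Plac8, a monocyte gene, was at 0 to 60.0 CPM in macrophages and at 137 to 1869 CPM in monocytes (-5.42 ± 0.42, adjusted p = 7.1e-09). Cd63, a lysosomal membrane protein, was at 245 to 854 CPM (median 717) against 0 to 86.1 CPM (median 55.0), with 1265 UMIs against 20 in all (3.26 ± 0.39, adjusted p = 5.9e-06).

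Several macrophage genes were higher than in monocytes. Fcrls, Itga9, Timp2, Pf4, Tanc2, Cd81, Pmepa1, Camk1, Selenop, Gatm and Pltp, the named genes with the largest increase after Cd63, had log2 fold changes from 1.75 to 3.17, each in 7 of 7 tumors. Of 21 tested lysosomal genes 5 were higher and none lower, among them Cd63 and the cathepsins Ctsd (1.66 ± 0.40), Ctsb (0.99 ± 0.20) and Ctsc (0.72 ± 0.20). Trem2 (1.12 ± 0.33), Maf (1.52 ± 0.42) and Cx3cr1 (1.15 ± 0.28) were higher too. Calls lost without 1 tumor were those of Trem2 (every tumor but irradiated 2 or 4, adjusted p = 0.054 to 0.172), Maf (irradiated 1, irradiated 2, control 1 or control 3, 0.051 to 0.083), Ctsc (the same 4 tumors, 0.060 to 0.099), Selenop (irradiated 1, irradiated 2 or control 1, 0.079 to 0.081) and Ctsd (irradiated 2 or control 3, 0.058 and 0.051). Maf, Ctsb, Cd63, Cx3cr1 and Pf4 thus lay above monocytes and below Mrc1-positive macrophages in the fitted values, while Ccr1 lay below both. The 2 comparisons share the Mrc1-free sums, and how many of all genes lay between the 2 populations was not counted.

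Lower than in monocytes, besides Plac8, were Arhgap26, Morrbid, Vps37b, Tmsb10, Gda, Svil, Fgr, Sowahc, Ccr1, Clec7a and Cytip, with log2 fold changes from -1.48 to -2.31. Class II genes had 2 lower of 8, H2-Aa (-1.05 ± 0.23) and H2-DMb1 (-1.19 ± 0.30). The interferon list had 2 lower of 12, Ifi27l2a and Ifitm3, the latter in 7 of 7 tumors (-0.89 ± 0.20, adjusted p = 0.0071). The Ifitm3 call was lost without irradiated 2 or control 3 (0.052 and 0.051), and that of H2-DMb1 without irradiated 1, control 1 or control 2 (0.052 to 0.060). When monocytes with Chil3 and Slfn4 were allowed, which gave 440 monocytes (10 to 222 per tumor), 1026 of 3626 genes passed, and H2-Aa turned to 0.23 (adjusted p = 0.49), so the order of class II levels depended on which monocytes were taken. Among cells of at least 5000 UMIs, with 5 tumors left, 6 of 1421 genes passed.

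**Figure D4:**
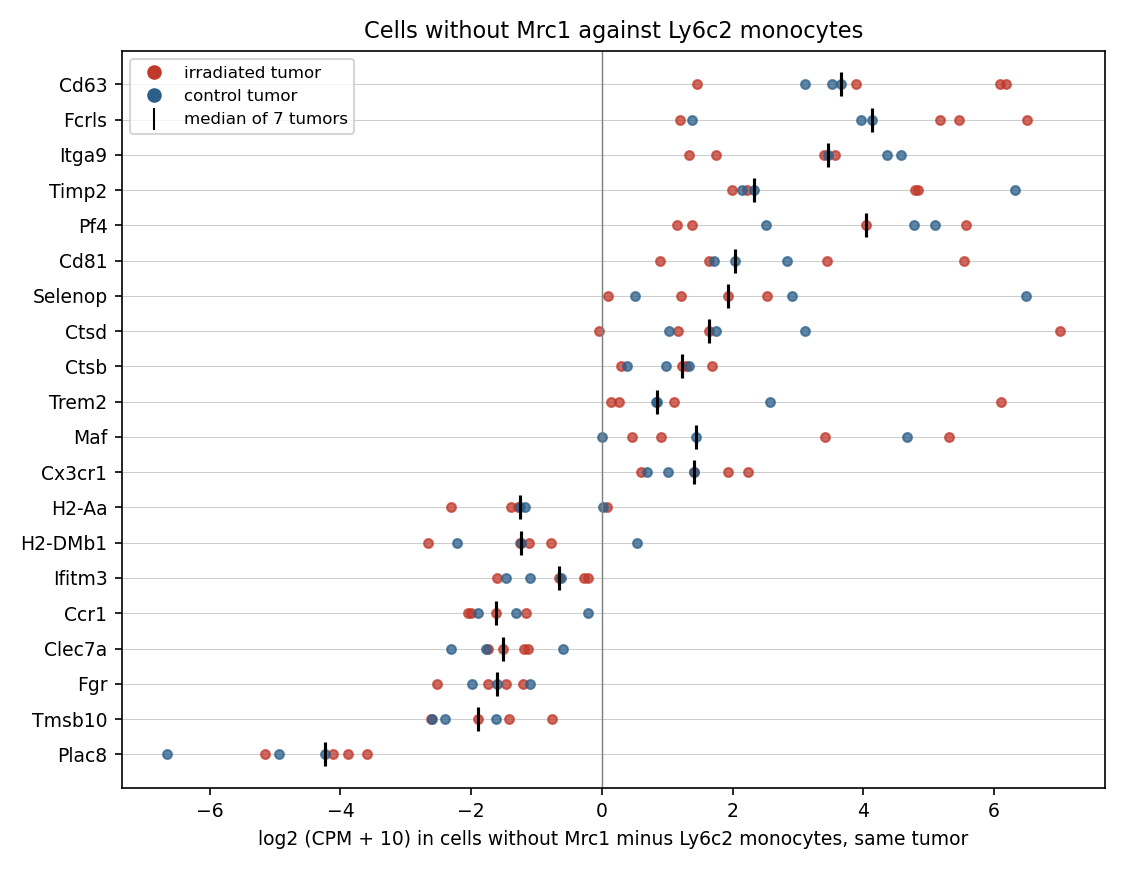
Difference of log2(CPM + 10) between Mrc1-free macrophages and Ly6c2 monocytes of the same tumor for 20 genes, with 1 point per tumor (red, irradiated; blue, control) and the median of 7 tumors as a black line. Cd63 and Fcrls lie right of 0 in all 7 tumors, Plac8 and Tmsb10 left of 0 in all 7, and H2-Aa on both sides.

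Whether radiation moved genes within the Mrc1-free cells was tested on 4 irradiated against 3 control sums. Of 3925 genes tested, 0 passed (0%) in edgeR's quasi-likelihood test with a smallest adjusted p of 0.43, 155 (3.95%) had an unadjusted p under 0.05, and 167 (4.25%) did not overlap between the groups. DESeq2 called 1 gene, Ly6a, and 14 genes passed without a filter on low counts. Without control 2, 1 gene passed, Ccl5. The sums held 102653 to 684178 UMIs, so a level of 20 CPM stood for about 2 molecules in the smallest.

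C3ar1, the label gene outside the rule, did not pass. Fcgr4 and Ms4a7 stayed among the genes tested here, but the rule used them, so their levels are a description and no result. Fcgr4 was at 219, 160, 92.3 and 340 CPM in irradiated tumors 1 to 4 and at 133, 89.2 and 121 CPM in control tumors 1 to 3, from 11 to 83 UMIs per tumor. The groups overlapped, with irradiated 4 highest and irradiated 3 inside the control range (log2 fold change 0.94 ± 0.34). Ms4a7 was at 1222 to 2089 CPM in irradiated and 1071 to 2111 CPM in control tumors, and C3ar1 at 277 to 303 against 221 to 407 CPM.

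Since none passed, the genes with the largest fold change at an unadjusted p under 0.05 and no overlap are given as values that failed the adjustment. Ly6a was at 411, 470, 1006 and 1464 CPM in irradiated and at 323, 160 and 174 CPM in control tumors (2.00 ± 0.48, adjusted p = 0.81). Hspb1, a small heat shock protein, was at 75.1 to 101 CPM against at most 28.2 CPM (1.70 ± 0.35, adjusted p = 0.43), and Tnf, an inflammatory cytokine, at 58.7 to 123 against 29.7 to 50.5 CPM (1.17 ± 0.36). The others with higher values in irradiated tumors were Vis1, Ass1, Coro2a, Med7, Sirpb1b, 6720427I07Rik and Chka, each with at most 50 UMIs in a tumor. With lower values were the matrix genes Sparc, at 0 to 47.0 against 53.3 to 105 CPM (-2.16 ± 0.57, adjusted p = 0.81), and Fn1, at 47.0 to 479 against 561 to 1345 CPM (-1.66 ± 0.58), and Pam, Nr4a2, Bex3, Emp1, St6gal1, Rab3gap1, Dip2c and Pik3ca. Sparc and Fn1 were at 2213 and 780 CPM in MPNST cells. The summed level of 8 fibroblast markers was 0.812 to 2.05 CP10K in Mrc1-free cells of irradiated and 1.66 to 5.06 CP10K in those of control tumors, and its part in these values was not tested.

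Interferon genes had mostly positive fold changes without passing. Of 22 tested genes of the type I interferon list 21 had a positive fold change, 8 had an unadjusted p under 0.05, and the median was 0.88 beside -0.01 over all genes. Irf7 was at 128, 488, 411 and 279 CPM in irradiated and at 267, 98.1 and 135 CPM in control tumors. Ifitm3 was at 575, 920, 1233 and 1427 CPM against 989, 403 and 584 CPM. For both genes irradiated 1 lay with control 2 and control 3, and control 1 with irradiated 2 to 4. The libraries split the same way on cell number and depth, while the 2 sets overlapped in genes per cell and mitochondrial share. With that split as a term in the fit the median of the list was 0.30. The clause on Ly6c2, Chil3 and Slfn4 left 313 of 815, 503 of 922, 330 of 1149 and 651 of 1220 cells in irradiated 2 to 4 and control 1. It left 1411 of 1586, 1649 of 1826 and 1694 of 1980 in irradiated 1, control 2 and control 3. Which of these differences goes with the interferon levels was not tested. The 13 tested class I genes had a median of 0.71 with 12 positive, and 0.27 with the split as a term. Class II genes had a median of 0.18, and 0.41 with the split as a term. H2-Aa was highest in irradiated 1 (4358 CPM) and ran from 849 to 1578 CPM in the other irradiated tumors and from 975 to 2979 CPM in the controls. Of 14 tested genes of the Trem2 list 13 had a negative fold change, with a median of -0.28.

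**Figure D5:**
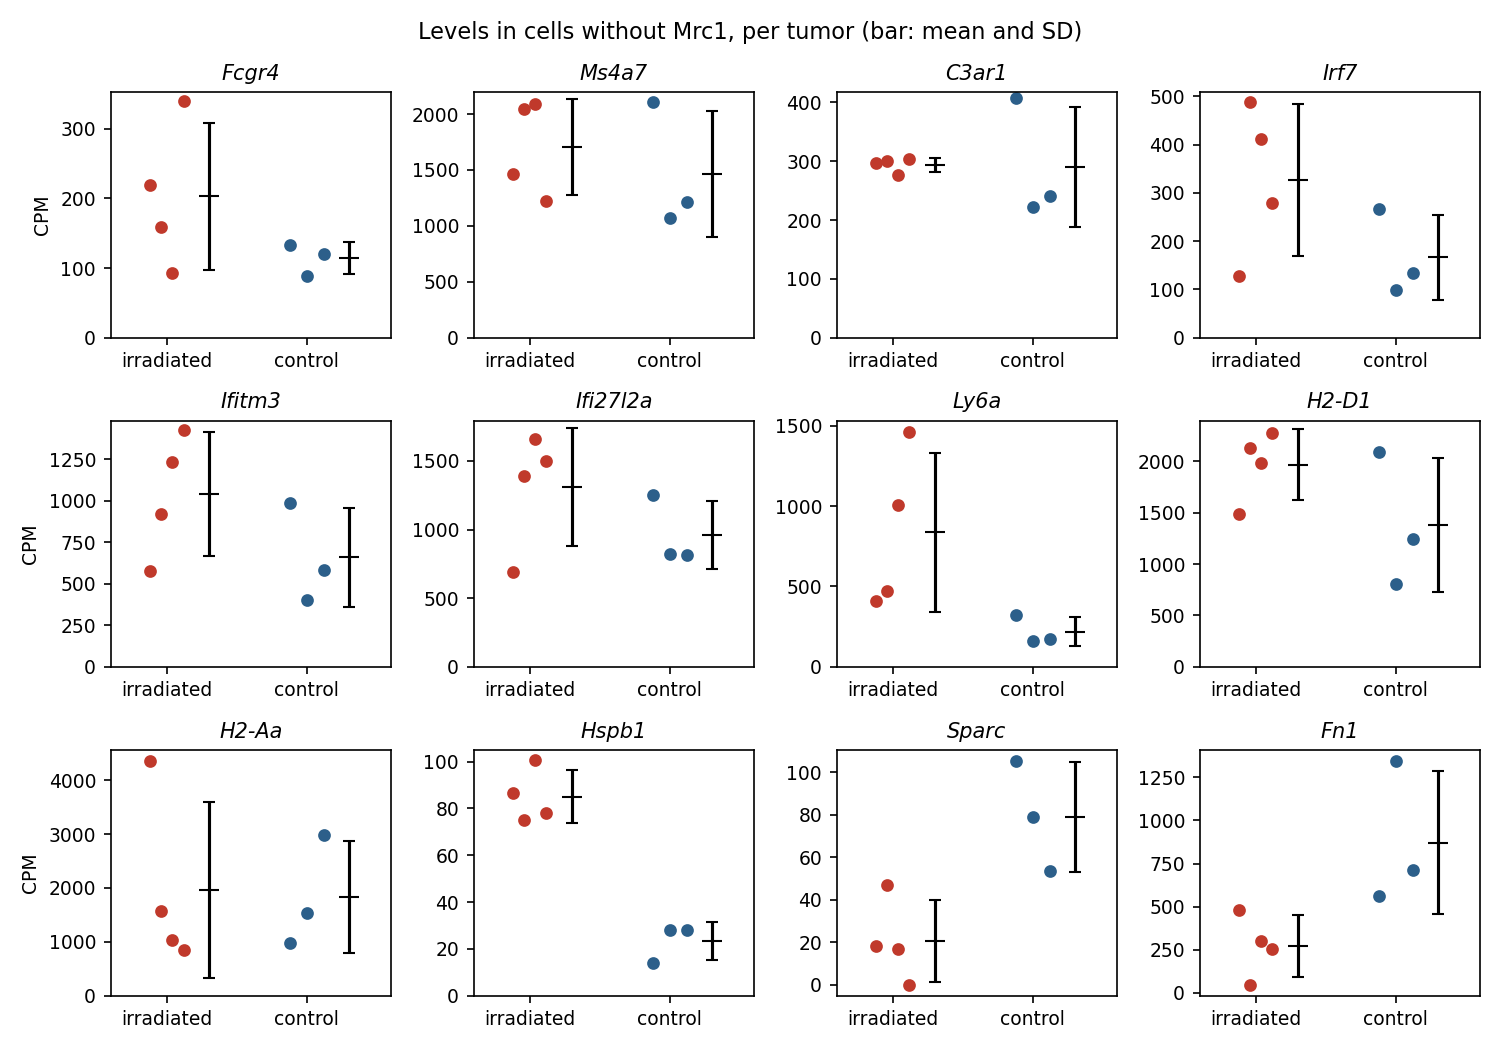
Levels of 12 genes in Mrc1-free Ms4a7 macrophages, in CPM, with 1 point per tumor (red, 4 irradiated; blue, 3 control) and the mean with its SD beside each group. Hspb1, Ly6a, Sparc and Fn1 do not overlap between the groups, the other 8 genes do, and none of the 12 passed the adjusted test. Fcgr4 and Ms4a7 are genes of the rule, so their levels are a description.

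The response to radiation was compared with that of the Mrc1-positive cells by an interaction term. Of 8274 genes tested, 1 passed (0.0121%), Hspb1, whose difference between irradiated and control tumors was larger by 2.28 ± 0.41 on the log2 scale in Mrc1-free cells (adjusted p = 0.0097). It was at 74.4 to 97.9 CPM in Mrc1-free cells of irradiated and at 13.8 to 29.0 CPM in those of control tumors, from 2 to 19 UMIs per tumor. In Mrc1-positive cells it was at 9.99 to 39.6 CPM in irradiated and at 27.9 to 41.6 CPM in control tumors. The call did not hold in thinned cells, where the difference was -0.68 (adjusted p = 0.9998), nor among cells of at least 5000 UMIs (1.25, adjusted p = 0.9992), and it was lost when irradiated 2, irradiated 3, irradiated 4 or control 2 was left out (adjusted p = 0.050 to 0.113). Hspb1 was at 308 CPM in MPNST cells and 94.6 CPM in T cells, and the part of free RNA was not tested.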

How the data were processed

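Cells of 7 tumors, 4 irradiated and 3 control, were profiled with 1 library per tumor. The authors deposited raw UMI counts per gene and cell, made with Cell Ranger (8.0.0 in the file headers) on mm10 per the submitters' notes, and the files were tested to hold whole numbers. Retained cells had at least 500 genes and at most 10% mitochondrial UMIs. No doublets were removed. Scrublet calls (scanpy 1.11.5) were used as an alternative. Counts were summed per tumor and population and tested with edgeR 4.0.16 (quasi-likelihood, TMM, filterByExpr, R 4.3.3) with Benjamini-Hochberg adjustment over all genes tested, and tumor was a term within tumors. For the monocytes of 5 tumors, sums rest on under 10 cells. Shares were compared by a two-sided exact permutation test over 35 splits, with scipy's two-sided p from the smaller tail. Per tumor differences are of log2(CPM + 10). Alternatives were DESeq2 1.42.0, RLE factors, no low-count filter, cells thinned to 3000 UMIs, equal cell numbers, stricter gates and leaving out each tumor. Those on cells of at least 5000 UMIs, on Chil3 and Slfn4 monocytes and on the gated denominator were chosen after seeing the data. Members and gene lists were chosen with earlier results of these data known. Within tumors, the named genes were the leading 12 each way by fold change past the threshold, with at least 50 CPM and 1 direction in all tumors, between groups 10 each way with at least 20 CPM, and the leading members of each list. Member sums held 102653 to 684178 UMIs. Intervals cover counting error only. Promoters came from RefSeq. Some items are not reported here.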

Additional observations from a re-analysis of the deposited data

Results flagged for a closer look

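The 4 irradiated tumors were checked for outliers by Dixon's test, and the control tumors were not. Of 163 values checked, 9 had 1 irradiated tumor far from the others, which chance alone gives in about 1 of 20 groups. Between groups, Emp1 in irradiated 2 was at 28.2 CPM, against 77.9 to 86.7 CPM in the other 3 irradiated tumors. The other 8 were log2 ratios within a tumor among the 4 irradiated tumors. Against Mrc1-positive cells, the ratio was 2.18 for AW112010 in irradiated 3 (0.55 to 0.79 in the others), 0.0597 for Cd14 in irradiated 1 (-1.12 to -0.94), -0.80 for H2-T23 in irradiated 3 (0.58 to 0.84), 1.00 for Psmb8 in irradiated 3 (0.27 to 0.35), 0.0902 for Npc1 in irradiated 1 (-0.80 to -0.67) and -0.32 for Lrp1 in irradiated 1 (-1.31 to -1.14). Against Ly6c2 monocytes it was 4.37 for Pltp (1.49 to 1.97) and 6.104 for Trem2 (0.15 to 1.11), both in irradiated 3, which had 2 such monocytes.

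The difference between irradiated and control tumors was larger for Hspb1 in Mrc1-free than in Mrc1-positive macrophages by 2.28 on the log2 scale in edgeR's interaction test, the only gene of 8274 to pass it, and it did not pass in thinned cells.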

How the results depend on the processing

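Of the 88 named calls against Mrc1-positive cells, none turned direction, 68 passed among cells of at least 5000 UMIs, 64 of the 82 with a value passed in thinned cells and 65 passed with any 1 tumor left out. The count of 497 genes there became 208 with equal cell numbers, where 2032 genes could be tested, and 183 with no tumor term, and was 358 to 454 with 1 tumor left out. RLE factors gave 245 higher and 252 lower genes, and 614 passed against cells with at least 3 Mrc1 UMIs.

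Against monocytes, 130 genes became 328 without a low-count filter, 6 among cells of at least 5000 UMIs (5 tumors), 5 with equal cell numbers (149 genes tested), 1026 with Chil3 and Slfn4 allowed, and 80 to 142 with 1 tumor left out. H2-Aa reversed to 0.23 with the wider monocyte gate. Between groups, 0 genes became 1 with DESeq2 and 14 without a filter, and 0 to 1 with 1 tumor left out. At an unadjusted p under 0.05 there were 155. The interaction count of 1 became 0 in thinned cells, with equal cell numbers and against cells with at least 3 Mrc1 UMIs, 3 among cells of at least 5000 UMIs, and 0 to 3 with 1 tumor left out. Hspb1 reversed in thinned cells, to -0.76 between groups and to -0.68 in the interaction. C3ar1 between groups reversed to -0.0579 in thinned cells, -0.121 with equal cell numbers and -0.0633 with the library set as a term, and ran from -0.0907 to 0.349 with 1 tumor left out, while H2-Aa ran from -0.67 to 0.65. In share differences, signs turned to 0.538 and 0.323 points in thinned cells (of retained cells and of macrophages), and to 0.0988 and, thinned, 4.51 points when the denominator was the cells that met every clause but the one on Mrc1. The cause of these changes was not tested.

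Replicate numbers did not pair tumors across groups (correlations of -0.146, -0.148 and -0.251), and the replicate block gave 0 genes between groups, as without it. Fcgr4-only cells were too few (7) for a comparison. Cell numbers limited the precision: 1 tumor gave as few as 20 Mrc1-free cells and 2 monocytes.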
